A study of Mus musculus with 6 samples.

Results

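The collagen genes of the mouse liver transcriptome were described here as a family, with 44 members among the 24346 genes of the deposited expression table. A gene was counted as a member when its symbol had the form of a collagen alpha chain, such as Col1a1 or Col18a1. Of the 44 genes, 20 had a mean level of at least 0.5 FPKM (fragments counted on a transcript, scaled to its length and to the library size) and could be tested for a difference between genotypes, against 11956 of all genes. The tested genes held all 6 chains of the fibrillar types I, III and V, 4 of 8 chains of the basement membrane types IV, XV and XVIII, and 10 of 30 chains of other types.

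The libraries came from whole livers of 6 male C57/BL6 mice aged 8 weeks, 3 per genotype and 1 mouse per library, and asked how loss of Med23 in the liver changes the response to an acute toxin. All 6 mice, controls included, received CCl4 (carbon tetrachloride, which injures hepatocytes) in sunflower oil by intraperitoneal injection at 0.6 μl per g body weight and were killed 24 h later, so no untreated liver is part of the comparison. The controls, med23f/f, carried the floxed Med23 allele and are called wt in the sample labels. The med23Δli mice, labelled med23 ko, carried the floxed allele together with Albumin-cre, which is active in hepatocytes. The study describes the deletion as specific to hepatocytes, and the values here do not show which liver cells kept an intact gene. MED23 is a subunit of Mediator, the complex that connects transcription factors with RNA polymerase II.

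Collagens are secreted or membrane-bound proteins whose alpha chains wind into a triple helix, as homotrimers or with chains of different genes. Types I, III and V assemble into the fibrils that form scars, type IV forms the sheet-like network of basement membranes, types XV and XVIII are proteoglycan collagens of basement membrane zones, and several of the remaining types bind to fibril surfaces or span the cell membrane. In liver, fibrillar chains are known mainly as products of stellate cells and portal fibroblasts, type IV chains of endothelial and stellate cells, and type XVIII of hepatocytes. Such sources are background, since a whole-liver library does not say which cell made a transcript, and fewer cells of a type and less RNA per cell cannot be told apart in it.

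Sequence at the starts of 5 genes is shown first, as RefSeq gives it for GRCm38.p6: the pair of type IV genes that lie head to head, the type V chains Col5a1 and Col5a3 with their unlike values, and Col20a1. Col5a2 had no entry. Col4a1 and Col4a2, which encode the chains of the common type IV heterotrimer, are transcribed away from each other on chromosome 8 and their annotated first bases overlap. The 22 bases at chr8:11312805-11312826 lie between these starts, inside the first exon of both genes, and are written in the direction of Col4a2. For Col5a1 and Col5a3, whose products are both type V chains, and for Col20a1, the 250 bases before the start are written in the direction of the gene. Capitals mark matches on either strand to the GC box motif GGGCGG, which is bound by Sp1-type factors, to the CCAAT motif, to the TATA box motif TATAAA of core promoters, or to the nuclear receptor half-site motif AGGTCA.
Col4a1 and Col4a2, between the starts: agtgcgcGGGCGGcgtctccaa
Col5a1, chr2:27886175-27886424, plus strand: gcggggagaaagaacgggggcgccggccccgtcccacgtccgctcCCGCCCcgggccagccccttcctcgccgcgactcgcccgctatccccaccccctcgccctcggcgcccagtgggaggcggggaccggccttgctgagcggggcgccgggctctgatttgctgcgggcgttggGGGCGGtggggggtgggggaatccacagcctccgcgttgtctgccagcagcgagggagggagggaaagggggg
Col5a3, chr9:20815068-20815317, minus strand: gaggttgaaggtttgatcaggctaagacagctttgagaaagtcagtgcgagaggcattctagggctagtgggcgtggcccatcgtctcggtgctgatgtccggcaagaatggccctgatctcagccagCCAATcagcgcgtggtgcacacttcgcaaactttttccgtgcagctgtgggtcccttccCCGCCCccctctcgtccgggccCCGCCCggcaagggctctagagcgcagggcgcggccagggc
Col20a1, chr2:180986285-180986534, plus strand: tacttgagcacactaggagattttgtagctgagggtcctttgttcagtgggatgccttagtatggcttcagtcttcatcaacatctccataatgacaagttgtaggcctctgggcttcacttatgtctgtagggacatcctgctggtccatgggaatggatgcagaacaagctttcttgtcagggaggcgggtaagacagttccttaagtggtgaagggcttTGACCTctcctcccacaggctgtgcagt

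The GC box between the Col4a1 and Col4a2 starts begins at base 8 of Col4a2. The Col5a3 promoter held GC boxes beginning at -63, -41 and -4 from the start, the last of them running into the transcript, and a CCAAT at -122, while the Col5a1 promoter held GC boxes at -205 and -73 and no CCAAT. The Col20a1 promoter held none of these except a half-site at -28 on the opposite strand. Windows of 300 bases, from 250 before the start, were found for 35 of the 44 collagen genes, as 38 windows, and for 16 of the 20 tested genes, as 18 windows. GGGCGG occurred in 23 of the 38 collagen windows, against 35.7% of all 32851 RefSeq windows, CCAAT in 13 against 37.4%, TATAAA in 5 against 13.6% and AGGTCA in 8 against 16.3%. The G+C share was 74.0% in the Col4a1 window, 73.7% in Col4a2, 75.0% in Col5a1, 63.3% in Col5a3 and 50.0% in Col20a1, beside a median of 59.8% over the collagen windows and 52.7% over all windows. The matches describe letters in a window and are not evidence that a factor was bound.

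Before the collagens were compared, the libraries were checked against their labels. Med23 itself stood at 3.42, 2.97 and 4.14 FPKM in the 3 med23f/f libraries and at 3.40, 3.40 and 2.91 FPKM in the 3 med23Δli libraries, so its level did not separate the genotypes and the directions given below rest on the labels. The gene-level value does not show whether the floxed exons were read. The 6 hepatocyte markers summed to 23109 to 32701 FPKM in the controls and to 18959 to 25370 FPKM in med23Δli livers, with overlap. Their median log2 fold change was -0.56, with 5 below 0 and Ttr above at 0.38, and Serpina1a passed the test (-0.70, limma adjusted p = 0.0305) but not in 5 of the 6 fits without 1 library. Replicate 2 of the med23Δli group stood apart by adipose transcripts. Its 8 adipose markers summed to 214 FPKM, with Adipoq at 5.65, Cfd at 23.8, Plin1 at 2.76, Ucp1 at 2.29 and Lep at 0.180 FPKM, whereas the other 5 libraries summed to 23.8 to 67.1 FPKM and were listed at 0 for Plin1, Ucp1 and Lep. Most of the sum in every library was Fabp4, at 177 FPKM in med23Δli replicate 2. Without Fabp4 the other 7 markers summed to 0.243 to 0.714 FPKM in the controls and 0.270 to 37.1 FPKM in med23Δli livers. The part of med23Δli replicate 2 in the collagen values was not tested, and results are given with and without that library where they rest on it.

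Across the family, 5 of the 20 tested collagen genes were lower and 1 was higher in med23Δli livers than in med23f/f livers at an adjusted p under 0.05 (limma on log2(FPKM + 0.1), Benjamini-Hochberg over all 11956 genes). Over all genes, 9.48% were lower and 11.6% were higher by the same rule. Among collagens with a difference of over 2-fold as well, 4 were lower and 1 was higher, beside 3.45% and 4.45% of all genes. With 1 FPKM added in place of 0.1, or with a filter at 1 FPKM, 2 were lower by over 2-fold. The 5 genes lower by adjusted p were Col4a1, Col4a2, Col11a2, Col13a1 and Col20a1, and the higher gene was Col5a3. Col11a2 and Col20a1 had med23Δli means under 0.5 FPKM and entered the test only through their control levels. Among genes with both group means at 0.5 FPKM or above, 3 of 18 collagens were lower, beside 9.27% of 11538 genes. The log2 fold change was below 0 for 19 of the 20 genes and above 0 for 1, against 47.8% and 52.2% of all genes tested, and its median was -0.46 over the collagens and 0.02 over all genes. In 8 collagen genes every med23Δli library lay below every control, as in 20.4% of all genes, and in 1 every med23Δli library lay above, as in 23.3%. Without med23Δli replicate 1, 3 genes were lower and 1 was higher. Without the library holding adipose transcripts, 4 were lower and 1 was higher. Col11a2 then had a limma adjusted p of 0.0540, at a log2 fold change of -1.57 as with all libraries. Without that library, 14 of the 20 collagen genes lay below every control in both remaining med23Δli libraries, against 24.2% of all genes, and the 6 added were Col1a1, Col1a2, Col3a1, Col5a1, Col6a2 and Col14a1.

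**Figure D1:**
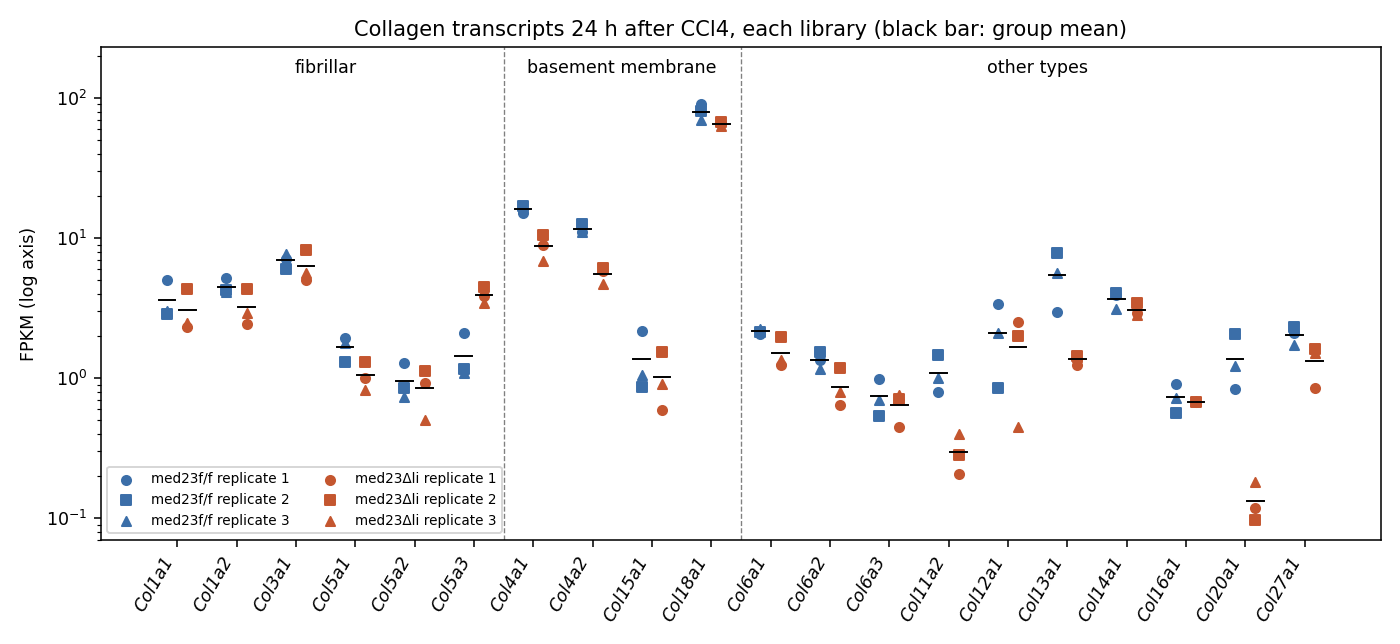
Level of each of the 20 tested collagen genes in FPKM (log axis) in the 3 med23f/f (blue) and 3 med23Δli (orange) libraries, with marker shape for the replicate and a black bar for the group mean. Col4a1, Col4a2, Col11a2, Col13a1 and Col20a1 sit lower in all 3 med23Δli libraries, Col5a3 sits higher, and most other chains overlap.

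The fibrillar chains were low in level, and 5 of the 6 did not pass the test. Col3a1, the homotrimeric chain of type III collagen, was the most abundant of them per transcript length. Its levels were 7.09, 6.01 and 7.68 FPKM in med23f/f and 5.04, 8.29 and 5.64 FPKM in med23Δli livers. The groups overlapped only through the med23Δli library that held adipose transcripts, which had the highest value of all. The difference was -0.15 on the log2 scale (95% interval -0.63 to 0.32, limma adjusted p = 0.612).

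Col1a1 and Col1a2 encode the chains of type I collagen, the main protein of fibrotic scars. Col1a1 was at 5.02, 2.88 and 3.01 FPKM in med23f/f and at 2.33, 4.36 and 2.48 FPKM in med23Δli livers, and Col1a2 at 5.19, 4.23 and 4.10 FPKM against 2.44, 4.31 and 2.92 FPKM. In both genes 1 library per group was high, replicate 1 of the controls and replicate 2 of med23Δli, the one with adipose transcripts. The groups overlapped through that library alone. The log2 difference was -0.25 for Col1a1 (95% interval -0.94 to 0.43, limma adjusted p = 0.562) and -0.50 for Col1a2 (-1.02 to 0.01, adjusted p = 0.141). The ratio of the chains overlapped between the genotypes. Col1a1 stood at 0.967, 0.680 and 0.734 of Col1a2 in the controls and at 0.955, 1.01 and 0.851 of it in med23Δli livers.

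The sizes of these differences depended on single libraries. Without the med23Δli library with adipose transcripts the log2 differences were -0.53 for Col1a1, -0.73 for Col1a2 and -0.36 for Col3a1, with limma adjusted p-values of 0.253, 0.0735 and 0.244. Without med23f/f replicate 1 the Col1a1 difference was -0.0038, and without med23Δli replicate 1 the Col1a1 and Col3a1 differences were -0.092 and -0.011. Over all 6 such fits they ranged from -0.53 to -0.0038 for Col1a1, -0.73 to -0.33 for Col1a2 and -0.36 to -0.011 for Col3a1, and none passed the threshold in any of them. With all libraries the intervals for Col1a1 and Col1a2 reached down to -0.94 and -1.02, so equal levels are not shown.

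Type V collagen sits inside type I fibrils and limits their width, and its chains behaved differently from each other. Col5a3 was the only one of the 20 tested collagen genes that rose. It measured 2.09, 1.16 and 1.09 FPKM in med23f/f and 3.84, 4.46 and 3.42 FPKM in med23Δli livers, and no control reached the lowest med23Δli value. The mean went from 1.44 ± 0.559 to 3.91 ± 0.524 FPKM (SD, n = 3), a 2.71-fold higher level, with a log2 fold change of 1.43 (SE 0.26, limma adjusted p = 0.0108). Leaving any single library out gave log2 fold changes of 1.26 to 1.71 and limma adjusted p-values of 0.00827 to 0.0481.

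Col5a1, the chain found in nearly all type V trimers, measured 1.93, 1.30 and 1.78 FPKM in med23f/f and 1.00, 1.31 and 0.827 FPKM in med23Δli livers. The groups overlapped by a narrow margin, again through med23Δli replicate 2 alone, and the log2 difference of -0.63 (95% interval -1.20 to -0.06) had a limma adjusted p of 0.103. Col5a2, the partner of Col5a1 in the common heterotrimer, measured 1.28, 0.846 and 0.729 FPKM against 0.919, 1.13 and 0.501 FPKM, with wide overlap and a limma adjusted p of 0.736. As a description of the balance of chains, Col5a3 stood at 1.09, 0.887 and 0.611 times Col5a1 in the controls and at 3.84, 3.40 and 4.14 times Col5a1 in med23Δli livers. Thus Col5a3 transcripts stood at 0.611 to 1.09 times Col5a1 transcripts per length in control livers and outnumbered them in every med23Δli liver.

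Summed over the 6 fibrillar genes, the level was 22.6, 16.4 and 18.4 FPKM in med23f/f and 15.6, 23.9 and 15.8 FPKM in med23Δli livers. The groups overlapped only through the library with adipose transcripts, and the other 2 med23Δli sums were below every control. The median log2 fold change of the 6 genes was -0.22, and it ranged from -0.46 without the med23Δli library holding adipose transcripts to -0.07 without med23f/f replicate 1. Col5a2 lies 24614 bases from Col3a1 on the opposite strand of chromosome 1, and the pair had log2 differences of -0.18 and -0.15.

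**Figure D2:**
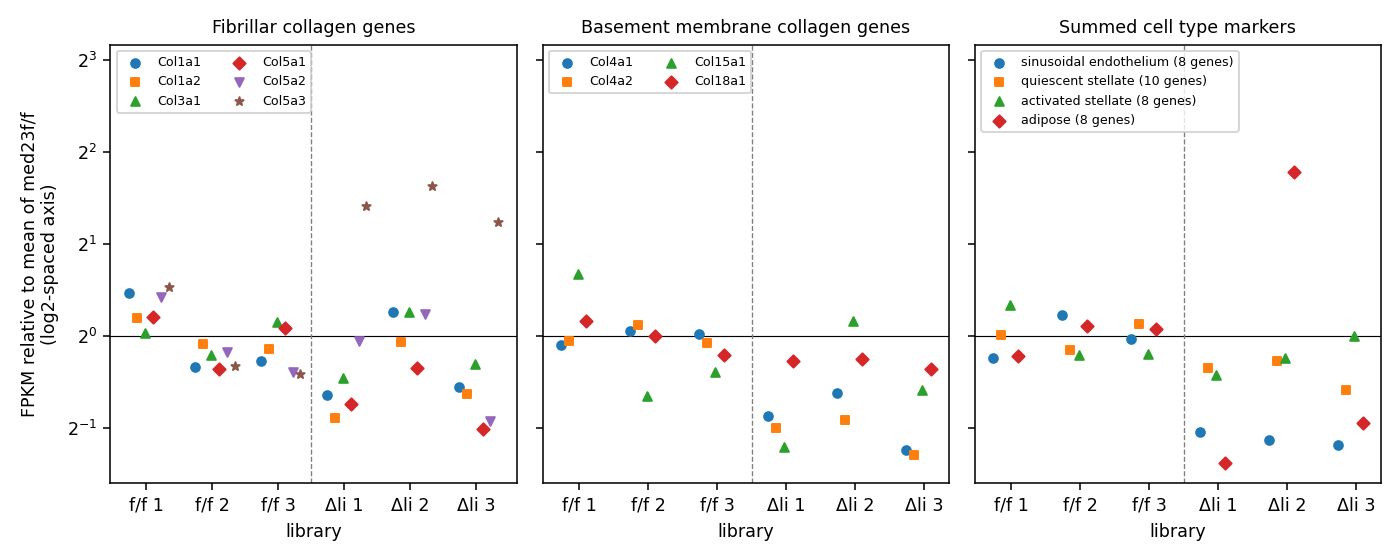
FPKM of each fibrillar gene (left), each basement membrane collagen gene (middle) and summed cell type markers (right) in each library, divided by the med23f/f mean, on a log2-spaced axis. Col5a3 lies above the other fibrillar chains in all 3 med23Δli libraries, Col4a1, Col4a2 and the sinusoidal endothelial markers are low in all 3, and adipose markers are high in med23Δli replicate 2 alone.

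Study primers for quantitative RT-PCR of Col1a1 and Col3a1 were placed on the annotation to show which stretch of these transcripts they read. They are given as listed, 5′ to 3′.
Col1a1-F: gctcctcttaggggccact
Col1a1-R: ccacgtctcaccattgggg
Col3a1-F: ggggaccagggcgaccact
Col3a1-R: caggtgaacccggcaagaacg

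The Col1a1 primers matched coding sequence in exon 1 (chr11:94936398-94936416) and exon 2 (chr11:94937947-94937965) of 51, 103 bases apart end to end in the spliced transcript. The Col3a1 primers matched coding sequence across exons 18 and 19 (chr1:45331775-45331776 and chr1:45331973-45331991) and in exon 24 (chr1:45334229-45334247) of 51, spanning 405 bases. In that listing the Col3a1 primer marked F lies on the antisense strand and R on the sense strand. None of the 4 matched a transcript of another gene in GENCODE M21.

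Type IV collagen, the network of the basement membrane and of the matrix beneath sinusoidal endothelium, was lower in med23Δli livers in both of its tested chains. Col4a1 (chr8:11198423-11312826, mm10, minus strand) measured 15.2, 16.9 and 16.5 FPKM in med23f/f and 8.88, 10.5 and 6.85 FPKM in med23Δli livers. Col4a2 (chr8:11312805-11449287, plus strand) measured 11.1, 12.5 and 11.01 FPKM against 5.78, 6.14 and 4.71 FPKM. In both genes all med23Δli libraries lay below all controls.

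The mean of Col4a1 was 16.2 ± 0.881 FPKM in med23f/f and 8.75 ± 1.85 FPKM in med23Δli livers (SD, n = 3), a log2 fold change of -0.90 (SE 0.17, limma adjusted p = 0.0128). The mean of Col4a2 was 11.6 ± 0.850 against 5.54 ± 0.741 FPKM, a log2 fold change of -1.05 (SE 0.15, limma adjusted p = 0.00513). The difference in Col4a2 passed the threshold with any library left out, whereas that in Col4a1 had a limma adjusted p of 0.0532 without med23Δli replicate 1, at a log2 fold change of -0.92. Because the first exons overlap on opposite strands and no strand setting is given in the sources used here, reads within the overlap cannot be assigned to either gene.

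The ratio of the chains to each other overlapped between the genotypes. Col4a1 stood at 1.37, 1.35 and 1.50 times Col4a2 in the controls and at 1.54, 1.72 and 1.45 times in med23Δli livers. Together they made up 26.3, 29.4 and 27.5 FPKM in med23f/f and 14.7, 16.7 and 11.6 FPKM in med23Δli livers. The other type IV genes, Col4a3, Col4a4, Col4a5 and Col4a6, which form the networks of kidney and other specialised membranes, all had means under 0.5 FPKM. The highest of them was Col4a5, with a mean of 0.282 FPKM.

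Col18a1, whose C-terminal fragment is endostatin, was by far the most abundant collagen transcript per length. Its levels were 90.0, 80.4 and 69.6 FPKM in med23f/f and 66.2, 67.5 and 62.7 FPKM in med23Δli livers. All med23Δli libraries were lower than all controls but by a small margin. The log2 difference was -0.28 (95% interval -0.60 to 0.03, limma adjusted p = 0.172), and it passed only after quantile normalization, at -0.39 with a limma adjusted p of 0.0404. Col18a1 alone made up 50.7% to 61.2% of the summed FPKM of the 44 collagen genes in each library. The hepatocyte markers, whose median log2 fold change was -0.56, lay in the same direction, and their part in the Col18a1 values was not tested.

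Col15a1, the close relative of Col18a1, measured 2.19, 0.871 and 1.05 FPKM in med23f/f and 0.593, 1.54 and 0.915 FPKM in med23Δli livers. The groups overlapped and the limma adjusted p was 0.532. Summed over the 8 basement membrane genes, the level was 98.3 to 119 FPKM in med23f/f and 75.5 to 86.2 FPKM in med23Δli livers, a sum carried mostly by Col18a1. The median log2 fold change of the 4 tested genes was -0.64. It ranged from -0.87 without the med23Δli library holding adipose transcripts to -0.55 without med23Δli replicate 3. With no filter, over all 8 genes, it was -0.25.

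The remaining types held 3 genes that fell by over 2-fold, of which Col20a1 and Col11a2 passed the filter on low values only through their control levels. Col20a1 (chr2:180986535-181018363, mm10), a collagen of the kind that binds to fibril surfaces, had the lowest log2 fold change of the family. It measured 0.833, 2.06 and 1.21 FPKM in med23f/f and 0.119, 0.0974 and 0.183 FPKM in med23Δli livers, so that the lowest control was several times the highest med23Δli value. The control mean was 10.3 times the med23Δli mean (1.37 ± 0.628 against 0.133 ± 0.0444 FPKM, SD, n = 3), with a log2 fold change of -2.59 (SE 0.38, limma adjusted p = 0.00614). At levels this low the added 0.1 FPKM makes the fitted change smaller than the ratio. With 1 FPKM added the log2 fold change of Col20a1 was -1.03, and that of Col13a1 was lower at -1.37. Exons shared with the overlapping annotation BX649560.1 leave the source of some reads uncertain.

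Col13a1 (chr10:61838236-61979108, mm10), a transmembrane collagen of cell adhesion sites, measured 2.95, 7.77 and 5.62 FPKM in med23f/f and 1.25, 1.45 and 1.41 FPKM in med23Δli livers. The controls were spread widely, whereas the med23Δli libraries were close together and all lower. The control mean was 3.98 times the med23Δli mean, with a log2 fold change of -1.82 (SE 0.32, limma adjusted p = 0.00991).

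Col11a2 (chr17:34039437-34066685, mm10), a minor fibril chain best known from cartilage, measured 0.802, 1.47 and 1.00 FPKM in med23f/f and 0.205, 0.285 and 0.402 FPKM in med23Δli livers. No med23Δli library reached the lowest control. The log2 fold change was -1.57 (SE 0.33, limma adjusted p = 0.0172). With 1 FPKM added in place of 0.1 it was -0.68, under 2-fold, and with 0.01 FPKM -1.84, and both passed the test. The adjusted p was 0.0646 without med23Δli replicate 1 and 0.0540 without replicate 2.

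Col12a1 and Col14a1, abundant members of these types, also coat fibrils and did not pass the test. Col14a1 measured 3.90, 4.03 and 3.14 FPKM in med23f/f and 2.90, 3.42 and 2.82 FPKM in med23Δli livers (log2 difference -0.26, limma adjusted p = 0.277). Col12a1 had the widest interval of the 20 tested genes, at 3.38, 0.854 and 2.09 FPKM against 2.52, 2.01 and 0.447 FPKM (95% interval of the log2 difference -1.93 to 1.09). Replicates within each group of Col12a1 differed by more than the group means.

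The 5 further tested genes, Col6a1, Col6a2, Col6a3, Col16a1 and Col27a1, had means of 0.690 to 1.84 FPKM and log2 differences of -0.63 to -0.07. None had a limma adjusted p under 0.120, although Col6a1 and Col27a1 were lower in every med23Δli library than in any control. Col6a1 and Col6a2, neighbours on the same strand of chromosome 10 that encode chains of type VI microfibrils, differed by -0.50 and -0.61. The summed level of the 30 other genes was 20.6, 24.1 and 20.6 FPKM in med23f/f and 11.6, 13.9 and 11.04 FPKM in med23Δli livers.

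**Figure D3:**
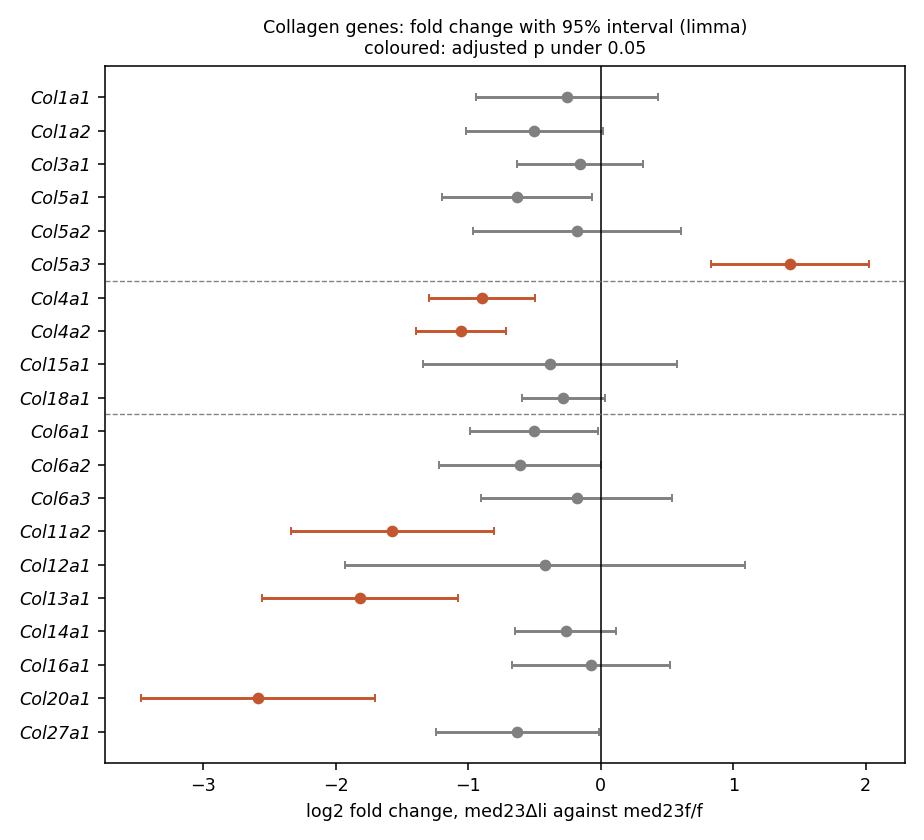
Log2 fold change of each tested collagen gene, med23Δli against med23f/f, with its 95% interval from limma, where colour marks an adjusted p under 0.05 and dashed lines part fibrillar, basement membrane and other types. The coloured points are Col5a3 at 1.43 and Col4a1, Col4a2, Col11a2, Col13a1 and Col20a1 at -0.90 to -2.59, and most grey intervals include 0.

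The 24 genes under the filter together gave 0.897 to 1.80 FPKM in a library. They were Col2a1, Col4a3, Col4a4, Col4a5, Col4a6, Col6a4, Col6a5, Col6a6, Col7a1, Col8a1, Col8a2, Col9a1, Col9a2, Col9a3, Col10a1, Col11a1, Col17a1, Col19a1, Col22a1, Col23a1, Col24a1, Col25a1, Col26a1 and Col28a1, many of them known from cartilage, skin, kidney or nerve. The highest single value was 0.462 FPKM, for Col6a6 in a control. Of the 24, 12 were listed at 0 in at least 1 library and 5 were above 0 in 1 library only. In Col7a1, the anchoring fibril collagen, and Col17a1, a hemidesmosome collagen, all med23Δli libraries were below all controls, at 0.0469 to 0.0652 against 0.189 to 0.239 FPKM for Col7a1. Of all 5796 genes under the filter that were above 0 in at least 1 library, 7.26% lay so, close to 2 of 24.

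Summed over all 44 genes, collagen transcripts stood at 162, 152 and 137 FPKM in med23f/f and at 109, 124 and 102 FPKM in med23Δli livers. Every med23Δli library lay below every control. Leaving Col18a1 out, the sums were 72.2, 71.1 and 67.7 FPKM against 42.9, 56.4 and 39.7 FPKM, which also did not overlap.

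Genes that act on collagens were read from 7 lists by step, and each count below stands against 11.6% of all genes that rose and 9.48% that fell. Of 18 tested genes for chain modification and folding, 4 rose and 1 fell, the latter a share below that of all genes. P4ha2, a catalytic subunit of the enzyme that hydroxylates helix prolines, went from 9.66, 9.18 and 9.99 FPKM in med23f/f to 21.4, 18.4 and 20.8 FPKM in med23Δli livers (log2 fold change 1.06, limma adjusted p = 0.00293). P3h1, a prolyl 3-hydroxylase, rose by 0.77 on the log2 scale, and Mia2, of the machinery that exports large cargo from the endoplasmic reticulum, by 0.58. The other gene that rose was Ppib, a prolyl isomerase that works in a complex with P3h1. Fkbp14, a collagen-folding isomerase, fell by 0.87 on the log2 scale. With each of the 6 libraries left out, P4ha2 kept its call in every fit, whereas Fkbp14 lost it in 1 fit, P3h1 in 2 and Ppib and Mia2 in 3 each. Serpinh1, the collagen chaperone, was at 17.1 to 33.4 FPKM in the controls and 17.1 to 24.4 FPKM in med23Δli livers and did not pass (limma adjusted p = 0.446).

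Outside the cell, Pcolce, which speeds removal of the procollagen C-terminus, fell by 0.65 on the log2 scale as 1 of 4 tested propeptide processing genes, a call lost in 4 of the 6 fits without 1 library (limma adjusted p up to 0.102). No gene passed among 4 for cross-linking, 5 fibril-associated proteoglycans and 5 collagen receptors. Of 5 collagenases and gelatinases, 2 fell, against 9.48% of all genes. Mmp14, a membrane-anchored collagenase, was at 36.9, 47.1 and 43.0 FPKM in med23f/f and at 12.9, 14.2 and 13.7 FPKM in med23Δli livers (log2 fold change -1.62, limma adjusted p = 0.00108), and kept its call without any 1 library. Mmp9, a gelatinase that degrades type IV collagen, fell by 1.20 on the log2 scale but lost its call in 5 of the 6 fits without 1 library (limma adjusted p up to 0.109).

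The other basement membrane components moved as the type IV chains did in 4 of 14 tested genes, all lower, against 9.48% of all genes. Nid1, which joins the laminin and type IV networks, measured 23.2, 16.5 and 18.3 FPKM in med23f/f and 4.84, 6.89 and 5.02 FPKM in med23Δli livers (log2 fold change -1.78, limma adjusted p = 0.00220). Pxdn, the peroxidase that cross-links type IV collagen, fell by 0.84 on the log2 scale, and Nid2 and the collagen-binding Sparc fell by 0.64 each. Nid1 kept its call without any 1 library, while Pxdn lost it in 3 of the 6 fits, and Nid2 and Sparc in 5 each (limma adjusted p up to 0.123 and 0.132). The median log2 fold change over the 14 genes was -0.39.

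**Figure D4:**
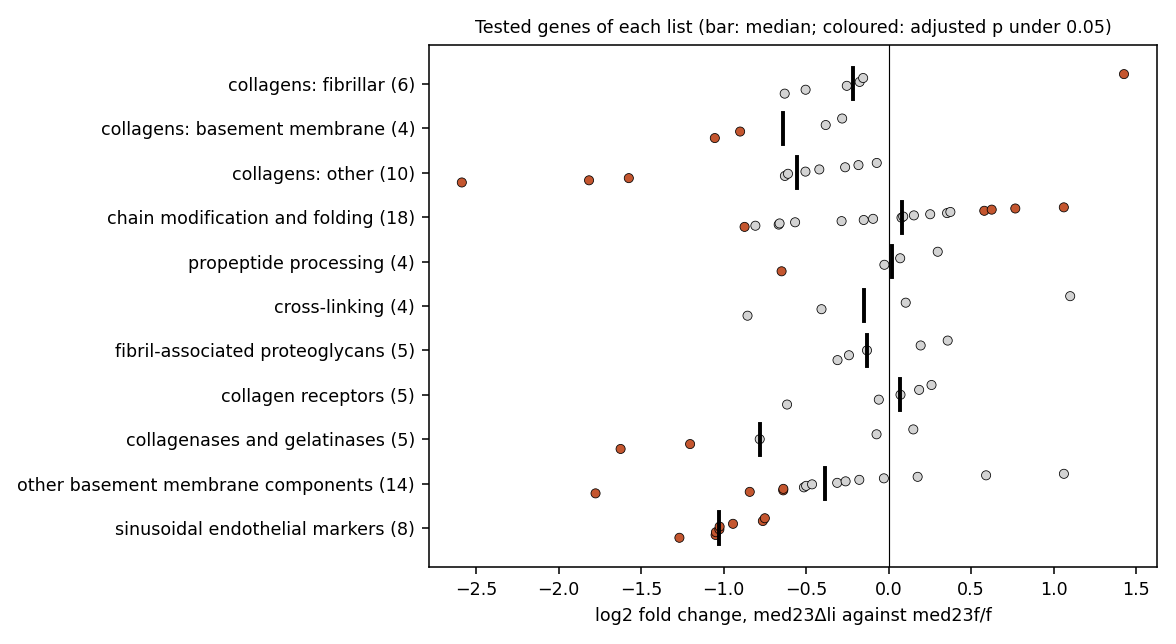
Log2 fold change, med23Δli against med23f/f, of each tested gene in the collagen classes, the lists of genes that act on collagens and the sinusoidal endothelial markers, with the number tested in brackets, a bar at the median and colour for an adjusted p under 0.05. The endothelial markers are all below 0 with a median of -1.03, and the folding genes lie on both sides of 0.

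Markers of the cells that make collagens were read beside these results. All 8 markers of liver sinusoidal endothelium were lower in med23Δli livers, 5 of them by over 2-fold, against 9.48% and 3.45% of all genes, with log2 fold changes of -1.27 for Clec4g to -0.75 for Pecam1. Stab2, Clec4g, Oit3, Fcgr2b and Kdr kept their calls without any 1 library, whereas Pecam1 lost its call in 1 of the 6 fits, Stab1 in 2 and Lyve1 in 3. Their summed level was 118 to 163 FPKM in med23f/f and 61.3 to 67.5 FPKM in med23Δli livers, and none of the 8 was at 0 in any library. Their part in the fall of Col4a1, Col4a2 and Nid1 was not tested.

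Of 10 quiescent stellate markers 2 fell, Colec11 and Des, against 9.48% of all genes, and the sum was 35.8 to 43.5 FPKM against 26.6 to 33.1 FPKM, without overlap. That separation was lost without Colec11, when the sums of the other 9 markers overlapped, at 24.8 to 33.6 against 19.8 to 27.1 FPKM. It held with any other single marker left out. Of the 10 markers, 8 had a log2 difference below 0 and 2 above, with a median of -0.48. In 4 of them every med23Δli library lay below every control, against 20.4% of all genes. Colec11 lost its call in 1 of the 6 fits without 1 library and Des in 5 (limma adjusted p up to 0.149). Des is also on the list of 5 vascular smooth muscle markers, of which it alone was tested, and their sum was 4.15 to 5.46 FPKM in med23f/f and 2.76 to 3.61 FPKM in med23Δli livers, without overlap. Without Des the sums of the other 4 overlapped. The 8 activated stellate markers summed to 98.3 to 143 FPKM in med23f/f and 85.2 to 114 FPKM in med23Δli livers, with overlap, and none of the 6 tested passed, as with the fibrillar chains other than Col5a3. Of 6 tested portal fibroblast markers 1 rose and 1 fell, against 11.6% and 9.48% of all genes, and the sum of the 8 listed was higher in med23Δli livers without overlap, at 11.6 to 13.4 against 8.35 to 8.99 FPKM. That direction came from Entpd2 alone, and the sum of the other 7 was lower without overlap, at 3.76 to 4.02 against 5.36 to 5.94 FPKM. Entpd2, which other liver cells can also express, had a log2 fold change of 1.49 (limma adjusted p = 0.00131) and kept its call without any 1 library. Dpt had one of -0.72 (limma adjusted p = 0.0440) and lost its call in 5 of the 6 fits (adjusted p up to 0.156). No tested cholangiocyte, mesothelial, macrophage or skeletal muscle marker passed. The part of stellate, smooth muscle or portal fibroblast markers in the collagen values, that of Col5a3 included, was not tested.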

How the data were processed

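Total RNA of 6 livers was made into Illumina libraries. According to the study's methods and the submitters' processing notes, the authors checked reads with FastQC, aligned them to mouse mm10 with TopHat and computed expression with Cuffdiff; versions, annotation, strand setting and Cuffdiff options are not given in the sources used here. The deposited values are FPKM per gene and library, normalized by the authors for transcript length and library size. The study's methods give only a median read number over samples. The deposited table gives no counts, so the depth of each library cannot be read from it and no counting intervals were computed. Its columns of the authors' group means, fold changes, p-values and q-values were not used.

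Testing was limited to genes whose 6 values averaged 0.5 FPKM or more and used log2(FPKM + 0.1) in limma 3.58.1 (lmFit, eBayes with trend) in R 4.3.3, with Benjamini-Hochberg adjustment over all 11956 tested genes and a threshold of 0.05. Fold changes are on the log2(FPKM + 0.1) scale, which understates changes of low genes. The procedure was tested on simulated data with changes larger than most of the collagen differences given here, so that test does not cover smaller differences. The collagen genes, their classes, the lists of other genes and the tests were chosen with earlier results of these data known. Named with values were all tested chains of types I, III, V, IV, XV and XVIII, of the other types those past the threshold and the 3 of highest mean, and up to 4 genes per list with the smallest adjusted p. Genes singled out outside this rule, such as Ppib, Serpinh1, Col7a1 and Col17a1, were chosen after their values were seen. The pseudocount, filter, scaling, variance model, replicate block and each library were varied in turn. Positions are from GENCODE M21 on mm10, promoters from RefSeq (GRCm38.p6), and figures were drawn with matplotlib 3.10.9. The study describes its controls as littermates, without saying which of these 6 mice shared a litter. The p-values weigh the difference between genotypes against the spread among the 3 livers of each group, moderated over all tested genes.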

Additional observations from a re-analysis of the deposited data

How the results depend on the processing

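The number of higher collagen genes was 1 under every alternative run, including with any library left out (1 to 1). The number of lower genes, 5, became 3 with a filter at 1 FPKM, under which Col11a2 and Col20a1 were not tested, and lay between 3 and 5 when a library was omitted, at 3 without med23Δli replicate 1, where fewer libraries entered the fit. It became 6 with no filter, when Col7a1 entered and passed (limma adjusted p = 0.021), and 6 after quantile normalization, when Col18a1 passed. The count of over 2-fold lower genes became 2 with a pseudocount of 1 FPKM and with the 1 FPKM filter. With no filter the median log2 fold change was -0.25 for basement membrane and -0.16 for other collagens, since more low genes entered. With each library left out, the medians ranged from -0.46 to -0.07 for fibrillar, -0.87 to -0.55 for basement membrane and -0.74 to -0.41 for other collagens. Of 295 values for single genes under 15 alternatives, 284 kept their direction and side of the threshold, 3 lost the call (Col4a1 and Col11a2, given above), 1 gained it (Col18a1) and 7 changed sign without passing. These were Col5a2 (-0.39 to 0.12 with each library left out, and 0.04 without med23f/f replicate 1), Col6a3 (-0.36 to 0.017, and 0.015 without med23f/f replicate 1), Col12a1 (-0.93 to 0.28, and 0.0022 without med23f/f replicate 1) and Col16a1 (-0.22 to 0.073), and the cause was not tested. No pairing of livers by replicate number was seen: the correlations of deviations from the group means over 11956 genes were -0.02, -0.05 and -0.12, and 0 of 6 libraries correlated best with its own number. With 3 livers per group this check cannot exclude a pairing. With the replicate number as a block, 1 gene was higher and 5 were lower, and the medians were -0.22, -0.64 and -0.56. The median over all tested genes was 0.02, -0.00 after median centring and -0.02 after quantile normalization. With 3 livers per group and no counts, the precision of genes near 0.5 FPKM in each library could not be computed.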
